A study of Mus musculus with 6 samples.

Results

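The genes described here encode the actin cytoskeleton and its transcriptional control. They are a list of 44 named genes, taken from the 20499 rows of the deposited count table by an exact match of the gene symbol. All 44 have a row, and 43 had enough reads to be tested. They comprise actins, tropomyosins, calponins and transgelins, myosin II chains, actin-turnover and membrane-linker proteins, RHOB and RND3, and the transcription factors SRF, MRTFA and MRTFB. The 6 RNA sequencing libraries came from cells labelled AML12, an immortalized liver cell line of the mouse. Every library carries the label H/R: the cells spent 6 h at 1% oxygen without glucose or serum and then returned to normal air in complete medium, which held 10% serum, insulin, transferrin and selenium, and 40 ng/mL of the glucocorticoid dexamethasone. The shRNF11 group (3 libraries, genotype RNF11 knockdown) received a lentivirus against the ubiquitin ligase gene RNF11, and the shControl group (3 libraries, genotype WT) the control virus. The labels give neither the number of shRNA sequences nor whether the replicates were separate cultures, so the p-values rest on variation among these libraries alone, and that may be technical. No library without hypoxia was analysed here.

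Actin monomers bind ATP and assemble into filaments that tropomyosins coat, myosin II pulls on, the Arp2/3 complex branches, capping proteins terminate and cofilin severs. Serum response factor (SRF) drives many of these genes, the actins included. Its coactivators of the MRTF family are held in the cytoplasm by monomeric actin, so that filament assembly lets them reach the nucleus. In liver, smooth muscle actin and transgelin are known as marks of activated stellate cells and myofibroblasts rather than of hepatocytes.

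The reads did not match the labelled identity of the cells. The table names human genes, and 0 of its 20499 Entrez numbers are mouse gene numbers. Of 16 hepatocyte markers, 11 had a row and only CPS1 had enough reads to be tested, at 1028 CPM on average in shControl and 1091 CPM in shRNF11. HNF4A, the defining hepatocyte transcription factor, had 4 reads in 1 library and 0 in the others. Of the 8 epithelial markers, 6 had a row, and EPCAM and KRT19 had none under those symbols. KRT7, KRT8 and KRT18 were abundant, CLDN7 was near 2 CPM, and CDH1 and CLDN4 had 1 to 14 reads per library. VIM was abundant, while the smooth muscle genes MYH11 and LMOD1 had 1 and 5 reads, each in 1 library. Depth ranged from 37485850 to 39045440 reads. RNF11 (Entrez 26994) had 2050, 1926 and 1930 reads in shControl and 573, 565 and 599 in shRNF11 (3.32-fold lower, edgeR adjusted p = 3.48e-28), as the group labels say. Below, CPM is a library's reads of a gene per 1000000 reads of its TMM-scaled total, and a gene is called changed at an edgeR quasi-likelihood adjusted p under 0.05. CPM is not divided by transcript length, so it is compared between groups and not between genes.

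Most of the actin genes rose modestly in shRNF11 cells, and a few moved apart from the rest. Of the 44 genes, 31 were called higher, where 17.4% of all tested genes were, and 2 were called lower, where 14.7% were. The other 11 comprise 10 that did not pass and CNN1, which was not tested. The list was chosen with earlier results of these data known, so these shares describe it and do not test it. The median log2 fold change of the 43 tested genes was 0.22, against -0.01 over all 13489 tested genes. The changes were small: 10 of the 43 tested genes were called with a log2 fold change of at least 0.32 in size, where 10.0% of all tested genes were. Among called genes alone, 10 of the 33 were that large, against 1349 of 4336 over the whole table. The 3 shRNF11 libraries lay wholly above the 3 shControl libraries for 32 genes (22.0% of all tested genes) and wholly below for ACTA2 and RHOB (20.9%).

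Abundance moved with these changes across the whole table. Of the 43 tested genes, 32 were among the 20% most highly expressed of all tested genes, and 25 of those 32 were called higher and 1 lower. In the whole of that 20%, 42.8% of genes were called higher and 12.9% lower, with a median log2 fold change of 0.06, against 0.21 for the 32. The part of abundance in the rise was not tested. The split also depended on scaling. With library totals in place of TMM factors, 27 of the 44 genes were called higher and 5 lower. Over all 13489 tested genes, 9.90% were then called higher, and 3255 genes were called lower. Of all calls, 29.1% were then higher, as opposed to 54.2% with TMM factors.

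**Figure D1:**
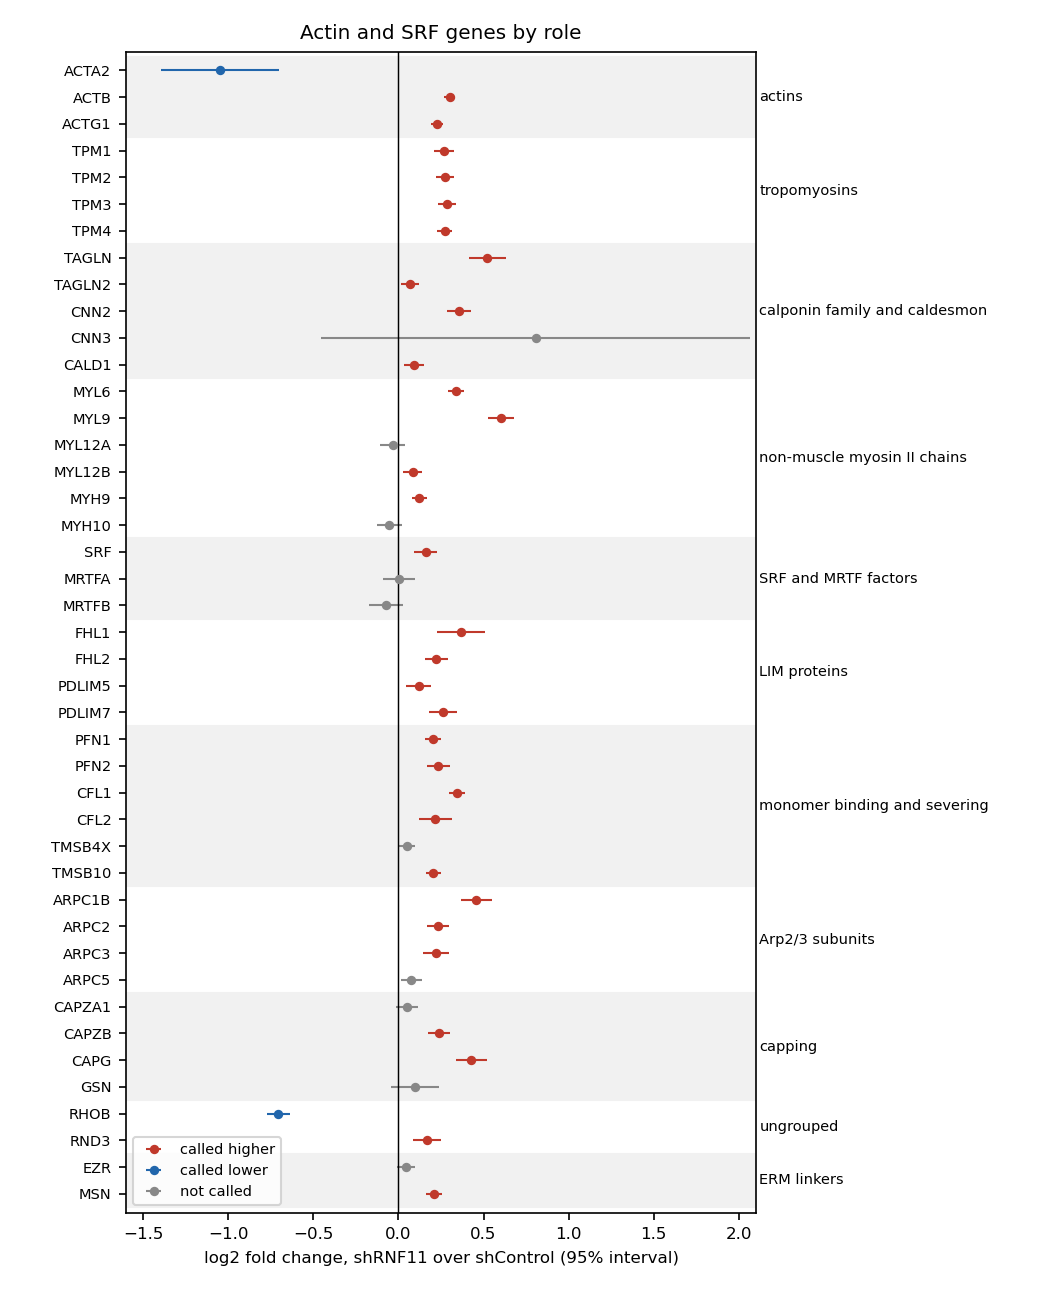
Log2 fold change (shRNF11 over shControl) of the 43 tested genes, grouped by role, with the 95% interval of each from the edgeR fit. Points called higher are red (31 genes), called lower blue (ACTA2 at -1.05 and RHOB at -0.71) and not called grey (10 genes); CNN3, with 2 to 22 reads per library, has the widest interval.

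The actins divided. ACTB (Entrez 60), the beta isoform of the cytoplasmic actin of all cells, stood at 6620.0, 6460.3 and 6645 CPM in shControl and at 8134, 8122 and 8054 CPM in shRNF11. It was 1.23-fold higher (log2 fold change 0.30, SE 0.0164, edgeR adjusted p = 4.36e-21). ACTG1 (Entrez 71), the gamma cytoplasmic isoform, was at 6178, 5914 and 6134 CPM in shControl and 7223, 7066 and 7027 CPM in shRNF11, 1.17-fold higher (log2 fold change 0.23, SE 0.0175, edgeR adjusted p = 2.83e-15). In both genes the groups were far apart relative to the spread within them, and together these 2 genes took 1.27% to 1.31% of all reads in shControl and 1.48% to 1.502% in shRNF11.

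ACTA2 (Entrez 59), smooth muscle alpha actin, moved the other way. It had 233, 236 and 207 reads in shControl (6.02, 6.16 and 5.35 CPM) and 102, 129 and 89 reads in shRNF11 (2.74, 3.39 and 2.35 CPM). Every shRNF11 library was below every shControl library, and the fit gave a 2.07-fold fall (log2 fold change -1.05, SE 0.173, edgeR adjusted p = 3.10e-06). With any 1 library left out, the log2 fold change of ACTA2 ranged from -1.20 to -0.92 and stayed called. ACTC1 and ACTG2, the cardiac and enteric smooth muscle actins and no members of the 44, were low as well but higher in shRNF11, ACTC1 at 9.13 ± 0.457 against 7.32 ± 0.166 CPM (n = 3 each, ± SD; edgeR adjusted p = 0.0348) and ACTG2 at 5.20 ± 0.187 against 3.73 ± 0.233 CPM (edgeR adjusted p = 0.0191). Among the reads of ACTA1, ACTA2, ACTC1 and ACTG2 together, the share of ACTA2 was 34.3%, 35.9% and 33.0% in shControl and 16.4%, 18.5% and 14.0% in shRNF11. The 2 groups did not overlap (exact 2-sided permutation test, p = 0.1, the smallest that 3 against 3 libraries allow).

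Some reads of these actins may be uncertain in their assignment, since the 6 actin genes are close relatives. Of the reads of all 6, ACTC1 held 0.0578% on average in shControl and 0.0600% in shRNF11 (exact 2-sided permutation p = 0.4). ACTG2 held 0.0295% and 0.0342%, and ACTA2 0.0461% and 0.0186% (exact 2-sided permutation p = 0.1 for each). The part of misassigned reads in these values was not tested. The strand setting of the counting is also unknown. The antisense gene ACTA2-AS1 had 3 to 14 reads per library and was not called, with all 3 shRNF11 libraries above shControl, and FAS and STAMBPL1, which lie beside ACTA2 in the human genome, were not called (edgeR adjusted p = 0.806 and 0.989). Because ACTA2 is also a stellate cell and myofibroblast mark, fewer cells of such a type and less ACTA2 RNA per cell cannot be told apart in these bulk libraries. The 8 smooth muscle markers, ACTA2 and CNN1 among them, summed to 53.4 to 56.1 CPM in shControl and 53.6 to 56.6 CPM in shRNF11. Most of that sum was SMTN, which is not restricted to muscle. The 10 fibroblast and mesenchymal markers summed to 1414 to 1446 CPM in shControl and 1650 to 1673 CPM in shRNF11, and VIM alone gave 1241 and 1456 CPM of that on average. Of the 8 tested, 4 were higher (17.4% of all tested genes were) and 0 lower, and PDGFRA had 2 to 11 reads per library. COL1A2, 1 of those 4, varied widely within groups, with 156, 16 and 19 reads in shControl and 16, 207 and 279 in shRNF11, and its groups overlapped. The epithelial markers summed to 3108 to 3237 CPM in shControl and 3776 to 3902 CPM in shRNF11. Of the 4 tested, KRT7, KRT8 and KRT18 were higher and 0 lower. These keratins lie in the most highly expressed 20% of tested genes, where 42.8% were called higher and 12.9% lower. KRT8 was 1.54-fold higher (edgeR adjusted p = 1.46e-25). The part of cells of any of these types in the results was not tested.

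**Figure D2:**
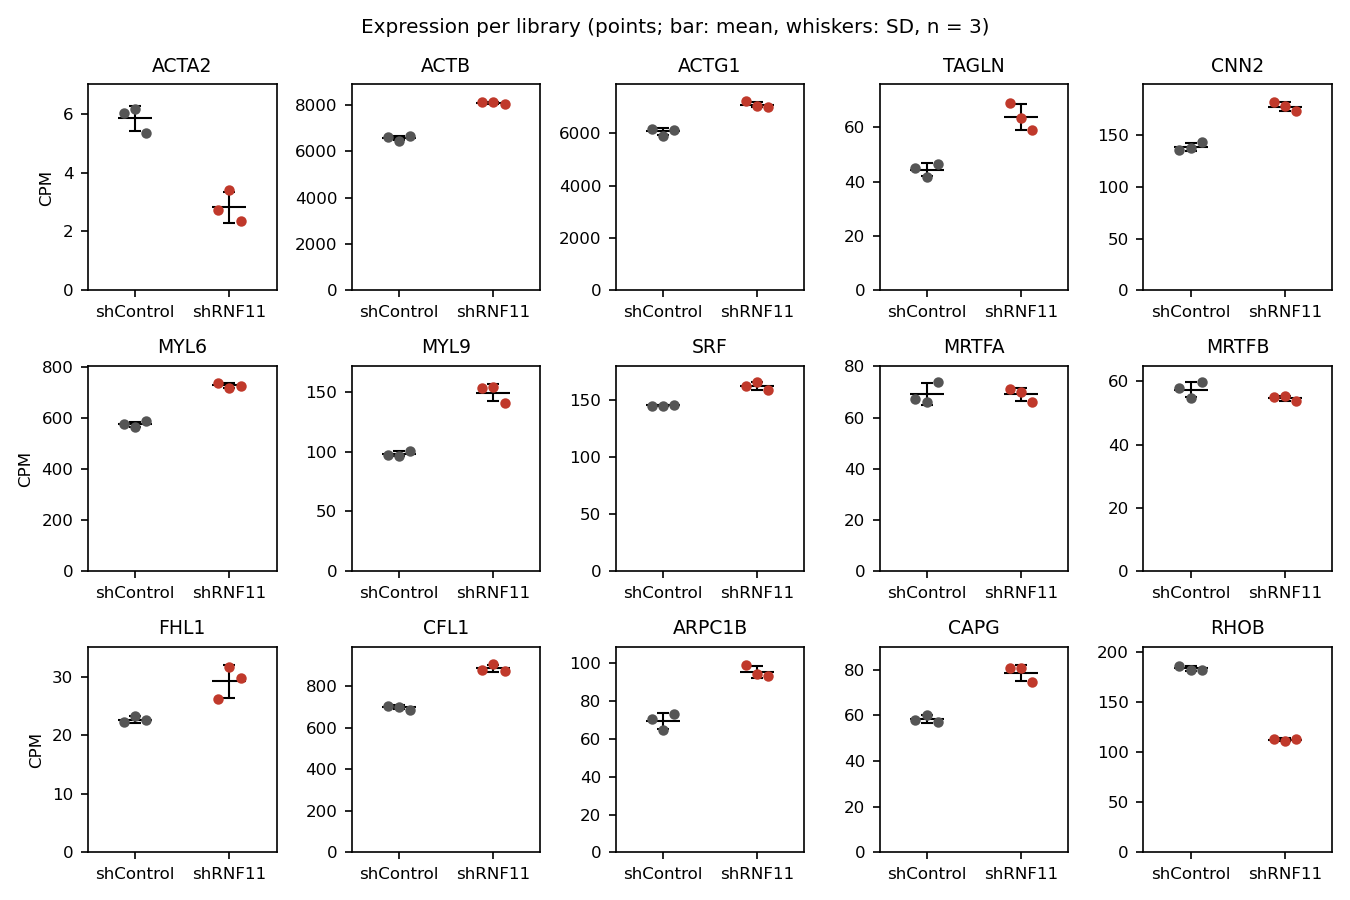
CPM in each library (points, 3 per group), with the group mean (bar) and SD (whiskers), for the actins, SRF and its coactivators, and every called gene of the 44 with a log2 fold change of at least 0.32 in size; each axis starts at 0. ACTA2 and RHOB fall without overlap between groups, MRTFA and MRTFB overlap, and the other 11 genes rise without overlap.

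The 4 tropomyosin genes rose by nearly the same amount. Tropomyosins are coiled-coil proteins that run along the filament and set which myosins and severing proteins can bind it. TPM4, a low-molecular-weight tropomyosin gene, was at 1164, 1160 and 1160 CPM in shControl and 1373, 1409 and 1426 CPM in shRNF11 (1.21-fold, log2 fold change 0.27, SE 0.0217, edgeR adjusted p = 8.50e-15). TPM1, TPM2 and TPM3 had log2 fold changes of 0.27, 0.27 and 0.28. For all 4 genes shRNF11 lay wholly above shControl, as for 22.0% of all tested genes. All 4 are among the most highly expressed 20% of tested genes, where 42.8% were called higher. The make-up of the family was close in the 2 groups. TPM4 held 53.1% ± 0.409 of tropomyosin reads in shControl and 53.1% ± 0.276 in shRNF11 (SD, n = 3 each), and the mean shares of TPM1, TPM2 and TPM3 differed between groups by less than the SD of the shRNF11 libraries. Shares within a family do not depend on how libraries are scaled.

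The calponin family and caldesmon bind filaments and modulate contraction. TAGLN (Entrez 6876), transgelin or SM22-alpha, a classical SRF target of smooth muscle, was at 44.8, 41.8 and 46.5 CPM in shControl and 68.7, 63.5 and 59.1 CPM in shRNF11. It was 1.44-fold higher (log2 fold change 0.52, SE 0.0533, edgeR adjusted p = 2.38e-11), opposite in direction to ACTA2, with which it shares that use as a marker. CNN2, the calponin of non-muscle cells, was 1.28-fold higher at 177.5 ± 4.26 against 138.7 ± 3.73 CPM (n = 3 each, ± SD; edgeR adjusted p = 3.95e-12). TAGLN2, the broadly expressed transgelin, and CALD1, caldesmon, were called with log2 fold changes of only 0.07 and 0.09. The muscle calponin CNN1 had 0, 0 and 8 reads in shControl and 0 in each shRNF11 library, and CNN3 had 2 to 22 reads per library, and no difference in either was detectable at this depth. TAGLN made up 8.52%, 8.20% and 8.91% of transgelin reads in shControl and 11.99%, 11.5% and 10.5% in shRNF11.

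Among the chains of non-muscle myosin II, the light chain MYL9 rose most. MYL9 (Entrez 10398), a regulatory light chain whose phosphorylation switches the motor on, was at 97.4, 96.6 and 100.4 CPM in shControl and 152.6, 153.4 and 140.8 CPM in shRNF11. The groups were well apart, with a 1.52-fold rise (log2 fold change 0.60, SE 0.0379; edgeR adjusted p = 1.43e-18). This was the largest rise among the called genes of the 44. MYL6, the essential light chain, was 1.26-fold higher at 728.6 ± 9.13 against 576.4 ± 10.9 CPM (n = 3 each, ± SD; edgeR adjusted p = 2.61e-16). The heavy chain MYH9 was 1.09-fold higher (edgeR adjusted p = 1.73e-05), while the other heavy chain, MYH10, was not called (log2 fold change -0.05, 95% interval -0.13 to 0.02).

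MYL9 has close relatives in MYL12A and MYL12B, which encode the other regulatory light chains, and reads may be split among the 3. MYL12B was 1.06-fold higher (edgeR adjusted p = 0.0213) and MYL12A was not called (log2 fold change -0.03, 95% interval -0.11 to 0.04). MYL9 held 17.5%, 17.6% and 18.4% of the reads of the 3 genes in shControl and 25.2%, 24.6% and 23.0% in shRNF11, without overlap (exact permutation p = 0.1, the smallest possible). MYLK, 1 of the kinases that phosphorylate these light chains, fell: it had 616, 597 and 594 reads in shControl and 383, 267 and 356 in shRNF11 (1.75-fold lower, log2 fold change -0.81, SE 0.109, edgeR adjusted p = 3.61e-08). MYLK-AS1, antisense to it, had 31 to 61 reads per library and was not called.

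**Figure D3:**
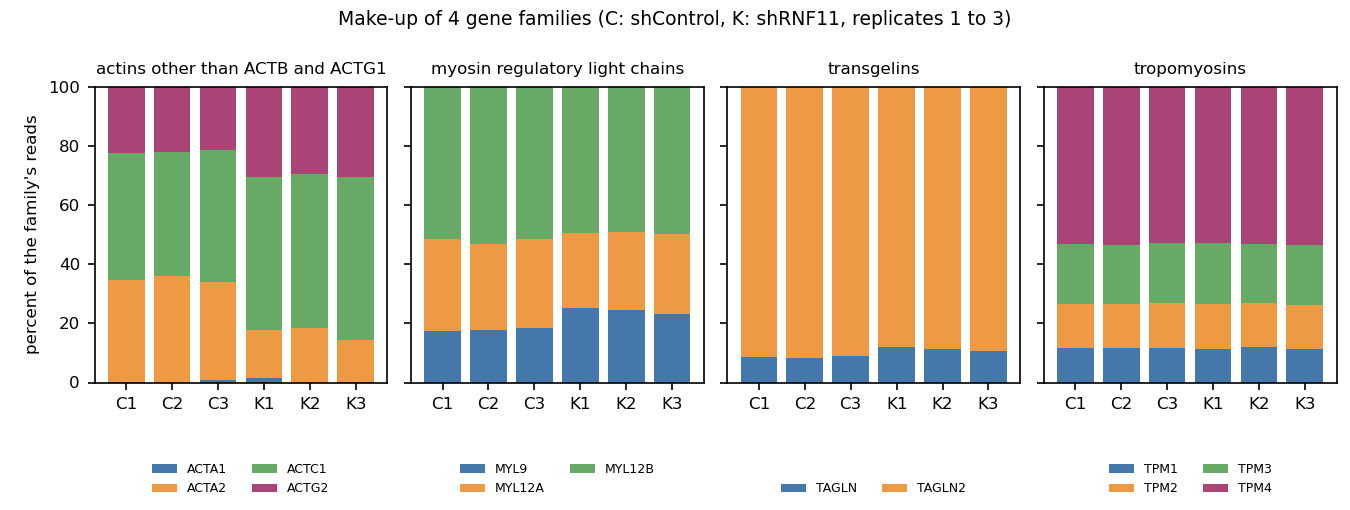
Share of a family's reads (percent, stacked to 100) taken by each member in each of the 6 libraries, for the actins other than ACTB and ACTG1, the regulatory light chains, the transgelins and the tropomyosins. ACTA2 shrinks from 34.4% to 16.3% of its family on average and MYL9 grows from 17.8% to 24.3%, whereas the 4 tropomyosins keep their proportions.

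The transcription factor rose slightly and its coactivators did not pass. SRF (Entrez 6722) was at 145.5, 144.9 and 146.2 CPM in shControl and 162.9, 166.0 and 159.0 CPM in shRNF11, 1.12-fold higher (log2 fold change 0.16, SE 0.0338, edgeR adjusted p = 0.000173). MRTFA (Entrez 57591), the coactivator that monomeric actin holds in the cytoplasm, was at 67.3, 65.96 and 74.0 CPM in shControl and 71.2, 70.1 and 66.2 CPM in shRNF11. Its groups overlapped (log2 fold change 0.0019, 95% interval -0.09 to 0.10, edgeR adjusted p = 0.981). MRTFB (Entrez 57496), its paralog, was at 57.7, 54.8 and 59.7 CPM in shControl and 55.0, 55.2 and 53.7 CPM in shRNF11, also with overlap (log2 fold change -0.07, 95% interval -0.17 to 0.03, edgeR adjusted p = 0.275). With library totals as the scaling MRTFB was called lower, at a log2 fold change of -0.14 (edgeR adjusted p = 0.0264).

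All 4 LIM-domain genes were called higher, where 17.4% of all tested genes were. Of the 4, 3 are among the most highly expressed 20% of tested genes, where 42.8% were called higher. FHL1, a LIM-only protein of stress fibres and muscle, was 1.29-fold higher, at 26.2, 31.7 and 29.8 CPM in shRNF11 and 22.2, 23.3 and 22.5 CPM in shControl (edgeR adjusted p = 5.28e-05). FHL2, its relative and a known SRF target, was 1.17-fold higher (edgeR adjusted p = 5.03e-07). PDLIM7 and PDLIM5, adaptors that combine a PDZ with LIM domains, had log2 fold changes of 0.26 and 0.12.

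Among the monomer-binding and severing genes, 5 of 6 were called higher, where 17.4% of all tested genes and 42.8% of the most highly expressed 20% were; 5 of the 6 lie in that 20%. CFL1, cofilin, which severs ageing filaments, was at 706.0, 701.5 and 686.6 CPM in shControl and 877.8, 906.2 and 871.1 CPM in shRNF11, 1.27-fold higher (log2 fold change 0.34, SE 0.0239, edgeR adjusted p = 6.70e-17). CFL2, the muscle-type cofilin, was 1.16-fold higher, and the profilins PFN1 and PFN2, which load monomers onto growing ends, 1.15-fold and 1.18-fold. Of the beta thymosins, which sequester monomers, TMSB10 was 1.15-fold higher (edgeR adjusted p = 4.76e-10), and TMSB4X was not called (log2 fold change 0.05, 95% interval 0.00 to 0.10, edgeR adjusted p = 0.0970). TMSB10 took 52.3% to 53.2% of the reads of this pair in shControl and 54.6% to 56.2% in shRNF11. Genes of this group, like the cytoplasmic actins, have many processed pseudogenes, which can draw or lend reads.

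Of the Arp2/3 subunits, which nucleate branches, ARPC1B rose most, at 70.6, 64.9 and 73.3 CPM in shControl and 99.2, 94.6 and 93.2 CPM in shRNF11 (1.37-fold, log2 fold change 0.46, SE 0.0443, edgeR adjusted p = 4.56e-12). ARPC2 and ARPC3 were 1.18-fold and 1.16-fold higher. ARPC5 did not pass (log2 fold change 0.08, 95% interval 0.01 to 0.14, edgeR adjusted p = 0.0553). Among the proteins that cap filament ends, CAPG, a gelsolin-like capper, was at 57.9, 60.3 and 57.3 CPM in shControl and 80.9, 80.6 and 74.6 CPM in shRNF11 (1.35-fold, log2 fold change 0.43, SE 0.0459, edgeR adjusted p = 1.03e-10). CAPZB, the beta subunit of CapZ, was 1.18-fold higher (edgeR adjusted p = 8.68e-08), while CAPZA1, an alpha subunit, and GSN, gelsolin, were not called (log2 fold changes 0.05 and 0.10, with 95% intervals of -0.01 to 0.12 and -0.04 to 0.24).

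RHOB and RND3 moved apart. RHOB (Entrez 388) stood at 186.4, 182.1 and 182.4 CPM in shControl and at 114, 111 and 113 CPM in shRNF11. The groups were far apart, and RHOB was 1.63-fold lower (log2 fold change -0.71, SE 0.0342, edgeR adjusted p = 5.48e-23). It was the 1 gene called lower among those 32 most highly expressed genes. RND3, an antagonist of ROCK1, was 1.12-fold higher at 87.5 ± 0.685 against 77.9 ± 2.86 CPM (n = 3 each, ± SD; edgeR adjusted p = 0.00140). Of the proteins that tie filaments to the plasma membrane, MSN, moesin, was 1.15-fold higher (edgeR adjusted p = 3.31e-10). EZR, ezrin, was not called although its groups did not overlap, at 436.0 to 440.8 CPM in shRNF11 and 417.9 to 432.1 CPM in shControl (log2 fold change 0.04, edgeR adjusted p = 0.228).

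Related actin genes outside the 44 were read from 3 further lists, again against 17.4% higher and 14.7% lower over all tested genes. Of 27 tested SRF targets, 17 were higher and 3 lower, with a median log2 fold change of 0.19. Of the 11 among the most highly expressed 20% of tested genes, 9 were higher, where 42.8% of all genes there were. The higher ones with the smallest p were DSTN, destrin, a depolymerizing relative of cofilin (1.48-fold, 382.1 ± 9.57 against 259.0 ± 7.32 CPM), the fibronectin receptor subunit ITGA5 (1.44-fold) and FERMT2, an integrin activator (1.27-fold). The 3 lower ones were IER2, an immediate early gene (1.35-fold lower), the AP-1 gene JUNB (1.18-fold) and TUFT1 (1.12-fold). None of these 6 had an edgeR adjusted p above 0.00324. FOS, FOSB and EGR1, immediate early targets that SRF drives through other cofactors, were not called. DSTN also stands in the list of turnover and cross-linking proteins.

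Of 19 other Arp2/3 subunits and activators, 7 were higher and 4 lower (median 0.05). Of these 19, 9 were among the most highly expressed 20% of tested genes and 4 of the 9 were higher, a share near the 42.8% of all genes there. ACTR3, the actin-related protein at the base of the branch, was 1.27-fold higher, CORO1C, a coronin, 1.14-fold, and CTTN, cortactin, 1.12-fold, whereas the activators WASL, BRK1 and WIPF1 were 1.14-fold, 1.11-fold and 1.11-fold lower. WASHC1, which belongs to a family of near-identical copies, was the fourth called lower.

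Of 31 tested turnover and cross-linking genes, 23 were higher and 3 lower (median 0.16). Of the 20 among the most highly expressed 20%, 18 were higher, where 42.8% of all genes there were. Besides DSTN, ENAH, which elongates filaments at the leading edge, was 1.29-fold higher at 388.3, 392.8 and 394.9 CPM in shRNF11 and 308.4, 307.9 and 297.9 CPM in shControl, and FSCN1, fascin, which bundles filaments in filopodia, had a log2 fold change of 0.32. EVL, a relative of ENAH, the pointed-end motor MYO6 and the pointed-end capper TMOD1 were 1.23-fold, 1.19-fold and 1.35-fold lower. None of these 6 had an edgeR adjusted p above 0.00427. By the table's own annotation, 19 of the 44 genes belong to the KEGG pathway for regulation of the actin cytoskeleton, a list chosen after the data had been seen. Of the 133 other tested genes of that pathway, which also holds receptors and kinases, 44 (33.1%) were higher and 17 (12.8%) lower, against 17.4% and 14.7% of all tested genes, with a median log2 fold change of 0.03. Of the 133, 53 were among the most highly expressed 20%, and 27 of those were higher, where 42.8% of all genes there were.

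**Figure D4:**
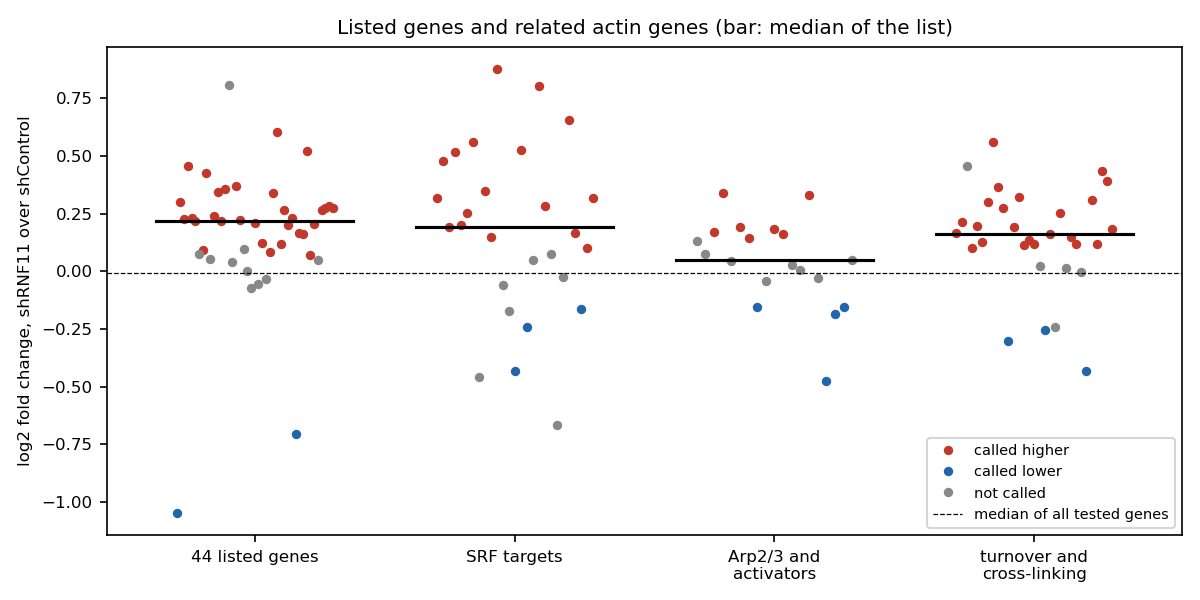
Log2 fold change (shRNF11 over shControl) of each tested gene in the 44-gene set and in the 3 further lists, coloured by call, with the median of each list as a bar and the median of all tested genes as a dashed line. The medians are 0.22 for the 44-gene set, 0.19 for SRF targets, 0.05 for Arp2/3 and its activators, and 0.16 for turnover and cross-linking genes; the lowest points are ACTA2 and RHOB.

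Summed by role, the 3 actins went from 12656 ± 239.5 to 15212 ± 139.5 CPM (SD, n = 3 each), a ratio of 1.202, which is almost wholly ACTB and ACTG1. The tropomyosins gave a ratio of 1.21, the LIM proteins 1.16, the monomer-binding and severing proteins 1.15, the Arp2/3 subunits 1.15, the capping proteins 1.13, the myosin II chains 1.12, the calponin family with caldesmon 1.11 and the membrane linkers 1.11. For each of these 9 roles the groups did not overlap (exact 2-sided permutation p = 0.1, the smallest possible). Among single tested genes, 22.0% had shRNF11 wholly above shControl. SRF with its coactivators gave 1.05 (exact permutation p = 0.2). The most abundant members weigh most in such sums. In shControl, MYH9 averaged 1672 of the 2957 CPM of the myosin II chains. TAGLN2 and CALD1 averaged 475 and 296 of the 954 CPM of the calponin family with caldesmon. The 44 genes took 2.55% to 2.61% of all reads in shControl and 2.88% to 2.91% in shRNF11. Replicates lay close: the median coefficient of variation of CPM over the tested genes was 1.98% in shControl and 2.08% in shRNF11, and it was largest for CNN3 in both groups.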

How the data were processed

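The authors deposited 1 table of raw read counts per gene, not normalized, with 1 column for each of 6 libraries. Per the submitters' processing notes fastp, HISAT2 and HTSeq were used, without versions or roles. The sources used here name no genome build, annotation or strand setting, so no sequence or coordinate is printed. Groups and replicate numbers came from sample titles. From the counts, genes were filtered with filterByExpr of edgeR 4.0.16 (minimum count 10, R 4.3.3), which kept 13489 of 20499. After TMM scaling, a quasi-likelihood F-test of shRNF11 against shControl ran over all kept genes, with Benjamini-Hochberg adjustment. The SE is the absolute log2 fold change over the square root of F. The variation between replicates beyond counting noise (edgeR's common coefficient) was 4.82%, and may be technical. The scripts were tested on simulated data. Alternatives were other scaling factors and filters, DESeq2 1.42.0, limma-voom (limma 3.58.1), a test against a 1.2-fold change, a replicate block, leaving out each library and, added after seeing the data, protein-coding genes only. Full values are given for the actins, SRF, its coactivators and called members with a log2 fold change of at least 0.32 in size, and fold changes or ranges for most others. 1 further gene list and 1 role sum are not reported here. From each further list up to 3 called genes per direction with the smallest p are named; other genes, and the KEGG pathway list, were chosen after their values were seen. The 44 genes and all lists were chosen with earlier results of these data known. Same-group libraries differed by more than sampling noise.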

Additional observations from a re-analysis of the deposited data

How the results depend on the processing

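Of the 44 genes 33 were called, as against 33 with RLE factors, with DESeq2 and with no filter, 34 with limma-voom, 31 with upper-quartile factors and 32 with protein-coding genes only. With 1 library left out there were 31 to 34 calls of the 44, 29 to 32 of them higher. Lower calls numbered 5 with library totals (MYL12A, MYH10 and MRTFB joining at log2 fold changes of -0.10, -0.12 and -0.14) and 1 with a mean of at least 5 CPM, which removed ACTA2 from testing. Library totals also moved the calls over all 13489 tested genes to 1335 higher and 3255 lower. Against a 1.2-fold change 496 genes were called in all, 256 higher and 240 lower. Of the 44, 9 then remained past the threshold, 7 of them higher, against 3.68% of all tested genes called. So did 7 of 27 tested SRF targets, 1 of 19 Arp2/3 genes and 3 of 31 turnover genes. ACTB (edgeR adjusted p = 0.0651), ACTG1 and the 4 tropomyosins did not pass. That test asks for a larger change by construction.

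Each of the 33 called genes kept its direction under every alternative that tested it. Log2 fold changes of uncalled members reversed for MRTFA (upper-quartile factors -0.017, library totals -0.063, a mean of at least 5 CPM -0.011, protein-coding genes only -0.0052, and -0.030 to 0.054 with 1 library left out) and, with library totals, for TMSB4X (-0.013), CAPZA1 (-0.013) and EZR (-0.022). The cause was not tested. The calls on TAGLN2, CALD1, MYL12B and PDLIM5 were lost with library totals, and those on TAGLN2 and MYL12B also with upper-quartile factors; TAGLN2 also with a mean of at least 5 CPM and with protein-coding genes only, the alternative chosen after seeing the data. Leaving out 1 library lost TAGLN2 (without any shControl library or shRNF11 replicate 1), MYL12B (without shControl replicate 1 or 3 or shRNF11 replicate 2) and CALD1 (without shControl replicate 1). Summed log2 ratios by role, all of unchanged sign, moved with library totals to 0.20 for actins, 0.21 for tropomyosins, 0.081 for the calponin family, 0.10 for myosin II, 0.010 for SRF factors, 0.15 for LIM proteins, 0.14 for monomer binding, 0.13 for Arp2/3, 0.12 for capping and 0.085 for membrane linkers. With upper-quartile factors they moved to 0.25 for tropomyosins, 0.13 for the calponin family, 0.18 for Arp2/3, 0.16 for capping and 0.13 for membrane linkers.

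Same-numbered libraries showed no shared deviation (correlations of deviations from the group means of -0.02, -0.01 and -0.01). The labels do not say whether they were prepared as pairs, and these correlations cannot tell. With the replicate number as a block, 34 of the 44 genes were called, ARPC5 joining (log2 fold change 0.08, edgeR adjusted p = 0.0455). Low read counts limit CNN1, which was not tested, and CNN3, which was not called and has a wide interval.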
